A study of Homo sapiens with 4 samples.

Results

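The heat shock protein and DNAJ genes encode the main chaperones of the cytosol, nucleus and mitochondria, and their transcripts were followed here in PC3 cells after depletion of ALKBH3, a demethylase that repairs alkylated DNA. Members were taken by gene symbol: HSP90, HSPA, HSPH, HSPD, HSPE and HSPB genes and the DNAJA, DNAJB and DNAJC genes, without the secretory chaperones HSPA5, HSP90B1, DNAJB9 and DNAJC3 and without HSPBP1, HSPBAP1 and HSPG2. The array measured 67 such genes, of 19102 named genes, with 87 probes of 34127. Of these members 25 were HSP genes and 42 were DNAJ genes. Of the 67, 58 were tested between shRNAs and 57 between time points, while the remaining members were too dim.

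PC3 is an established human prostate cancer cell line. Cells were infected for 48 h with lentivirus carrying either an shRNA against ALKBH3 or a control shRNA, which targets GFP, and were then kept in puromycin for 48 h or 96 h. One-colour Agilent arrays were hybridised with total RNA, giving 4 arrays, 1 for every pairing of shRNA with time. All 4 groups thus shared the cell line, the infection and the drug, which ALKBH3 hairpin was used is not given in the labels, and a single line was studied. Each shRNA had 2 arrays, 1 at 48 h and 1 at 96 h. In the main fit between shRNAs, p-values and standard errors (SE) measure only the spread between the 2 time points. In the main fit between time points, they measure only the spread between the 2 shRNAs.

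HSP70 chaperones bind exposed hydrophobic stretches of client proteins in cycles of ATP hydrolysis. DNAJ proteins deliver clients and stimulate that hydrolysis, HSP110 proteins release the nucleotide, and HSP90 takes over clients such as kinases. HSP60 with HSP10 folds proteins in the mitochondrial matrix, and small HSPs hold unfolded chains without ATP. Under stress, heat shock factor HSF1 binds heat shock elements, arrays of inverted GAA units, and drives the inducible members.

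The promoters of members that carried the 3-unit heat shock element are shown so that the element can be read beside each gene's difference between time points, which is given further on. RefSeq promoter windows (GRCh38.p14, 250 bases before to 50 bases after the start, 300 bases in all) were held for 60 of the member genes, and were searched for GAANNTTC followed by NNGAA and for TTCNNGAA followed by NNTTC. Each of these is the reverse complement of the other, so both strands were covered, and each contains the 2-unit motifs GAANNTTC and TTCNNGAA, which were searched too. The 3-unit motifs occurred in 7 of 79 member promoters (8.86%) and in 0.49% of all 35116 promoters. The 2-unit motifs occurred in 29.1% of member promoters and in 13.5% of all promoters. Capitals mark the motif, and each run is given 5′ to 3′ on the strand of its gene.
HSPA8 (chr11:123062171-123062199, minus strand, 55 bases before the start): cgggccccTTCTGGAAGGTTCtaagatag
HSPA8 (chr11:123062346-123062374, minus strand, 230 bases before the start): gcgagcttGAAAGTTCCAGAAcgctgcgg
HSP90AA1 (chr14:102087112-102087140, minus strand, 88 bases before the start): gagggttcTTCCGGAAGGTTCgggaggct
HSP90AB1 (chr6:44247823-44247851, plus strand, 112 bases before the start): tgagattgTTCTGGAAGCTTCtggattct
HSP90AB1 (chr6:44247770-44247798, plus strand, 165 bases before the start): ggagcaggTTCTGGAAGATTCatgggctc
HSPD1 (chr2:197500062-197500090, minus strand, 245 bases before the start, overlapping matches): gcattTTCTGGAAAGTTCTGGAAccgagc
HSPA6 (chr1:161524458-161524486, plus strand, 74 bases before the start): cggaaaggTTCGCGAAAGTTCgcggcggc
DNAJB6 (chr7:157336865-157336893, plus strand, 131 bases before the start): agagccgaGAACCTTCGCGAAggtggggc

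DNAJA1, the other member with the longer motif, carried it just after its start. HSPA1A and HSPA1B, the stress-inducible HSP70 pair, carried only the 2-unit motif in these windows. The HSPA1A match is the same stretch of DNA that lies before HSPA1L on the opposite strand. DNAJB1, the stress-inducible HSP40, also carried the shorter form only.
HSPA1A (chr6:31815426-31815455, plus strand, 106 bases before the start): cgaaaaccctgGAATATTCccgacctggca
HSPA1B (chr6:31827622-31827651, plus strand, 105 bases before the start): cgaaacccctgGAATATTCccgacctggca
DNAJB1 (chr19:14518456-14518485, minus strand, 77 bases before the start): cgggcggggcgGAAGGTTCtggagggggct

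Signals below are log2 values relative to the 75th percentile of the same array, so a value of 0 is a probe at that percentile, and levels are compared only for the same probe between arrays. The 75th percentile lay between 2150 and 2394 intensity units, and 67.0% to 70.9% of probes were well above background on an array. The 2 arrays of a time point shared a slide and a scan, so slide and time cannot be told apart. ALKBH3 read -0.74 and -0.89 in the control arrays and -2.48 and -2.41 in the ALKBH3 shRNA arrays at 48 h and 96 h. The log2 difference was -1.63 (SE 0.12, limma, adjusted p = 0.253, and 0.0264 with time point as a block). Epithelial markers (5 of 5) were well above background on all arrays and had a summed relative intensity of 161 to 181. Leukocyte markers summed to 0.190 to 0.205 and endothelial markers to 0.156 to 0.204. All 4 leukocyte markers were well above background on all arrays, as were 2 of 3 endothelial and 2 of 3 fibroblast markers. The lists rest on different probes, so their sums are not compared with each other as levels. Luminal prostate markers, of which 3 of 5 were well above background on all arrays, summed to 2.48 to 3.91. All 4 arrays came from the PC3 line, so the sums are read as transcripts of that culture and not as counts of other cell types. In bulk RNA, fewer cells that express a marker and less of its RNA per cell cannot be told apart.

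The first comparison asked whether the chaperone genes differed between ALKBH3 shRNA and control shRNA. Differences were small in most members and took both directions. A gene was called at a 2-fold difference with an unadjusted limma p below 0.05, and 1 of 58 members, DNAJC5G, was called higher (1.72%, against 1.04% of all 14556 genes tested), while 0 were called lower (0.234% of all genes). DNAJC5G entered the test only through the ALKBH3 shRNA arrays, where it is the higher, so its call is given as a description only. With a filter on all 4 arrays it was not tested, and 0 of 57 members were called. No member passed an adjusted p of 0.05 by limma or by a plain t-test, and 0% of all genes did. At an unadjusted limma p below 0.05 there were 3 members, 2 higher and 1 lower, which is 5.17% of members against 8.33% of all genes, and the plain t-test also gave 3 (5.17%, against 7.26% of all genes). In 8 members the ALKBH3 shRNA arrays both lay above the control arrays and in 8 they both lay below, together 27.6% of members against 36.4% of all genes. With time point as a block DNAJC5G was again the 1 member with an adjusted p below 0.05 (1.72%, against 4.46% of all genes), and the same limit applies. The median log2 difference was -0.02 over the members and -0.0030 over all genes tested. Summed fibroblast markers were higher with ALKBH3 shRNA (0.985 and 0.765, against 0.633 and 0.397 in the controls), and summed endothelial markers were lower (0.160 and 0.156, against 0.204 and 0.197), 48 h first. Of the endothelial markers PECAM1 and CDH5 were lower at both times, while VWF was higher at both (-6.00 and -5.91, against -6.26 and -6.24). Of the epithelial markers, EPCAM read 3.83 and 3.4 with ALKBH3 shRNA against 2.87 and 2.41 in the controls, and CDH1 0.78 and -0.71 against -0.12 and -1.28. KRT18 and KRT19 were lower with ALKBH3 shRNA at both times, and KRT8 took both directions. The epithelial sum was lower (166 and 161, against 181 and 166). The part of these markers in the member differences was not tested.

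**Figure D1:**
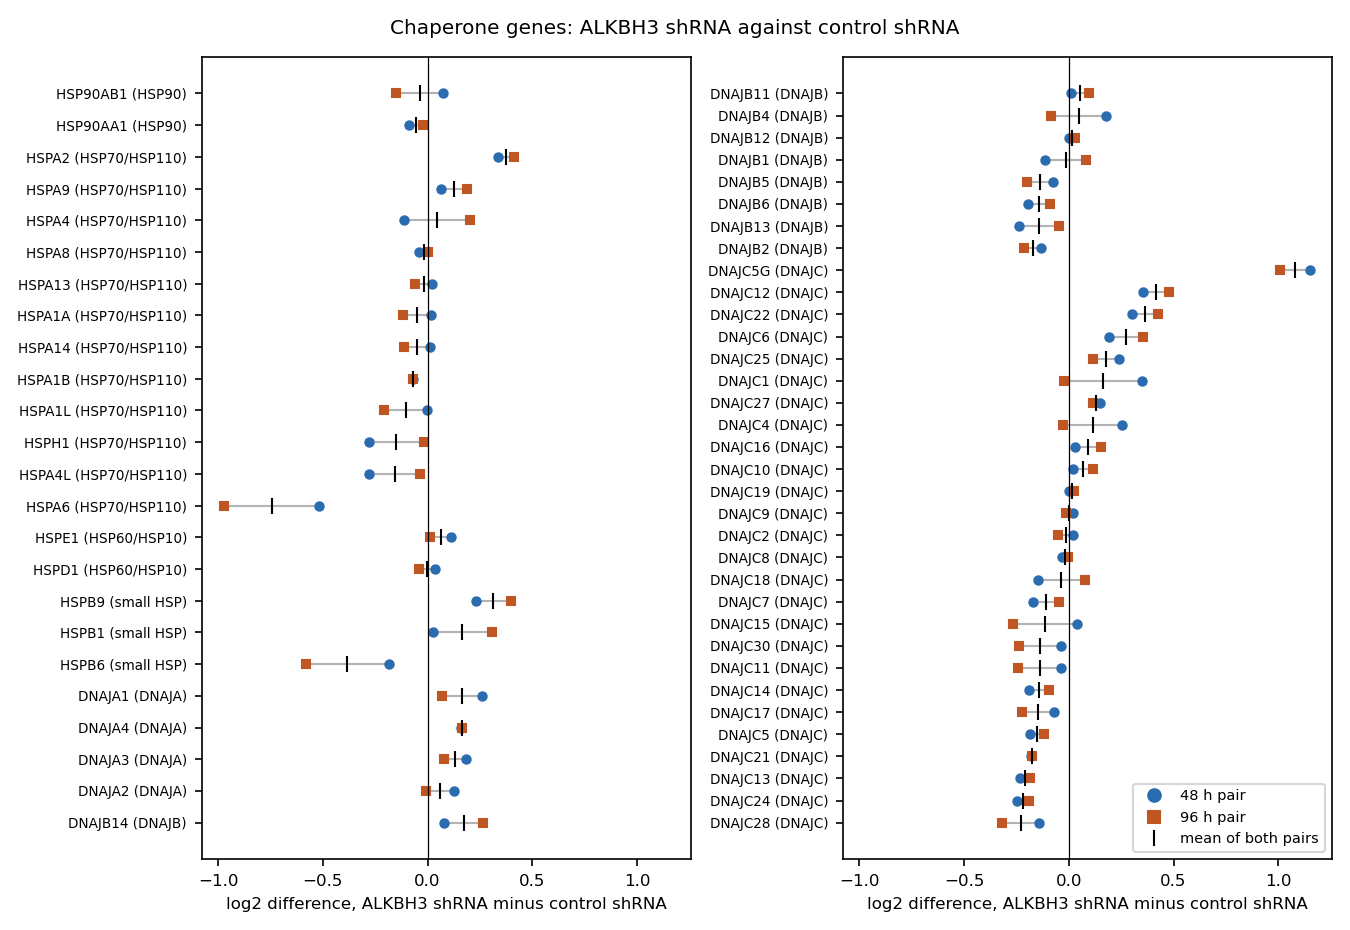
Log2 difference between ALKBH3 shRNA and control shRNA for the 58 members tested, by family, in the 48 h pair (circles) and the 96 h pair (squares), with the mean of both pairs as a bar. Most members lie near 0 and HSPA6 (-0.74) lies farthest below it, while the DNAJC5G points rest on control signals that were not well above background.

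DNAJC5G, a member of the cysteine string protein family known from testis, read -7.20 at 48 h and -7.14 at 96 h in controls, and -6.05 and -6.13 after ALKBH3 depletion. Both ALKBH3 shRNA arrays lay above both control arrays. Neither control array had this probe well above background, so the size of its difference is not well measured. The mean of the ALKBH3 shRNA arrays was 1.5-fold the lowest signal of any probe well above background, averaged over the control arrays. That is 0.59 in log2, and the limma adjusted p of 0.330 belongs to the difference of the signals as read (1.08). The log2 difference was only 0.10 after normexp background correction and 0.26 in the values normalized by the authors. The call was lost after quantile normalization, after normexp background correction, in the values normalized by the authors and with the filter on all 4 arrays.

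HSPA6, the HSP70 that is nearly silent without stress, was the member with the largest difference downwards. At 48 h and 96 h it read -0.98 and -1.08 on the control arrays and -1.50 and -2.05 on the ALKBH3 arrays. The groups did not overlap, and the log2 difference was -0.74 (SE 0.22, limma, adjusted p = 0.496). A second HSPA6 probe gave -0.24, so the probes share the direction but not the size.

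HSPA2, an HSP70 abundant in testis, read -0.89 and -0.83 on the control arrays and -0.55 and -0.41 on the ALKBH3 arrays, 48 h first. It was higher on both ALKBH3 shRNA arrays, by 0.38 (SE 0.12, limma, adjusted p = 0.544). DNAJC12, a co-chaperone of the aromatic amino acid hydroxylases, was higher by 0.42 (SE 0.23, adjusted p = 0.741). DNAJC22 was higher by 0.36 (adjusted p = 0.824) with overlapping groups, and HSPB9, a small HSP of testis, by 0.31 (adjusted p = 0.660). The HSPB9 probe was dim (mean signal -4.73). Its difference was 0.08 after normexp background correction and 0.11 in the values normalized by the authors. On the other side HSPB6, a small HSP of muscle, differed by -0.38 (adjusted p = 0.704) and DNAJC28 by -0.23 (adjusted p = 0.900). DNAJC24, which acts in diphthamide synthesis, differed by -0.22 (adjusted p = 0.738), and DNAJC13, a protein of endosomes, by -0.21 (adjusted p = 0.742).

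The families showed no common direction between shRNAs. HSP members had a median difference of -0.04 and DNAJ members of 0.0027. All 4 DNAJA genes were higher, by 0.06 to 0.16, but in none of them did the groups separate. DNAJB genes ranged from -0.17 to 0.17 and the 2 HSP90 genes differed by -0.05 and -0.04. HSP60 and HSP10, encoded by HSPD1 and HSPE1, differed by -0.0042 and 0.06.

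The heat shock response list held 14 genes, of which 13 are members and CRYAB, a small HSP of lens and muscle, is not. It also holds HSPA8 and HSP90AB1, which are known as constitutive forms. Their median difference between shRNAs was -0.03, with 4 above 0 and 10 below. HSPA8, the constitutive HSP70, differed by -0.02, HSP90AA1 by -0.05, HSPA1A by -0.05 and HSPA1B by -0.07, each with an SE of 0.17 to 0.29. These SE take in the change between time points, and with time point as a block each was 0.08. HSPH1, the HSP110 of the cytosol, and its relative HSPA4L differed by -0.15 and -0.16. DNAJA1 and HSPB1, the small HSP27, were 0.16 and 0.17 higher.

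Co-chaperones and regulators outside the symbol rule also differed little: of 25 tested, 0 were called, 1 had an unadjusted limma p below 0.05 (8.33% of all genes did), and their median was -0.0047. That gene was HSF4, a heat shock factor of the lens, at -0.54 (adjusted p = 0.376, and 0.0466 with time point as a block). The 8 CCT subunits of the cytosolic chaperonin had a median of 0.10 and the 4 secretory chaperones one of -0.04, with 0 called in either list. Mitochondrial members (9) had a median of -0.0042, and the DNAJ members of the endoplasmic reticulum (8) one of 0.08. DNAJC2, a chaperone of the ribosome, differed by -0.02 with overlapping groups (adjusted p = 0.990). DNAJC25 differed by 0.18 and its groups did not overlap (SE 0.13, adjusted p = 0.834). These genes and DNAJC24 are given because the study's own work on ALKBH3 at promoters names them.

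The second comparison set 96 h against 48 h of puromycin, with both shRNAs in each group. The mean of 17 of 19 HSP members was higher at 96 h (48.7% of all genes were), while DNAJ members took both directions. Of these HSP members 9 had an unadjusted limma p below 0.05 (9.89% of all genes were higher at that p). Every mean difference was under 2-fold, and no member passed an adjusted p of 0.05 without a block. By the 2-fold rule 0 of 57 members were called, against 0.247% of all 14559 genes called higher and 0.79% called lower. By limma 0 members passed an adjusted p of 0.05 (0% of all genes), and by the plain t-test 0 did. At an unadjusted limma p below 0.05, 11 members were higher (19.3%, against 9.89% of all genes) and 8 were lower (14%, against 9.38%), and the plain t-test gave 15 in both directions together (26.3%, against 14.8% of all genes). With shRNA as a block, 7 members had an adjusted p below 0.05 and were higher (12.3%, against 6.15% of all genes) and 5 were lower (8.77%, against 7.25%). Both 96 h arrays lay above both 48 h arrays in 23 members (40.4%, against 26.9%) and below them in 16 (28.1%, against 26.4%). Over HSP and DNAJ members together, the shares of lower members with the block and by separation thus lay near those of all genes. Of the 38 DNAJ members, 15 separated downwards and 10 upwards (26.4% and 26.9% of all genes). At an unadjusted limma p below 0.05, 8 of them were lower and 2 higher (9.38% and 9.89% of all genes). The fit with shRNA as a block gave 5 lower and 0 higher at an adjusted p below 0.05 (7.25% and 6.15% of all genes).

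HSP and DNAJ members are described apart, and the difference between them was not tested. Of 19 HSP members tested, 17 were higher at 96 h (48.7% of all genes were), with a median log2 difference of 0.26. In 13 of these the groups did not overlap (26.9% of all genes separated upwards). Of 38 DNAJ members, 17 were higher and 21 lower, with a median of -0.07, while the median over all genes was -0.0079. Within each shRNA the HSP median was 0.31 (control) and 0.28 (ALKBH3). The median absolute difference between the 2 control arrays was 0.27 over members and 0.18 over all genes, and between the 2 ALKBH3 shRNA arrays 0.25 and 0.19. Between shRNAs at one time point these medians were smaller, 0.13 over members and 0.15 over all genes at 48 h, and 0.11 and 0.14 at 96 h. Among the 2521 genes with a mean signal of at least 2, the median difference was -0.0090 and 8.09% were 0.3 or more higher, while the 18 members among them had a median of 0.27 and 8 were at or above 0.3. Summed fibroblast markers were lower at 96 h within each shRNA (0.397 against 0.633 in controls, 0.765 against 0.985 with ALKBH3 shRNA), as were luminal markers (2.48 against 3.49, and 2.66 against 3.91). CDH1 read -0.12 at 48 h and -1.28 at 96 h in controls, and 0.78 and -0.71 with ALKBH3 shRNA. KRT18, also an epithelial marker, was higher at 96 h in both shRNAs, as was KLK2 of the luminal list. The part of these markers was not tested.

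**Figure D2:**
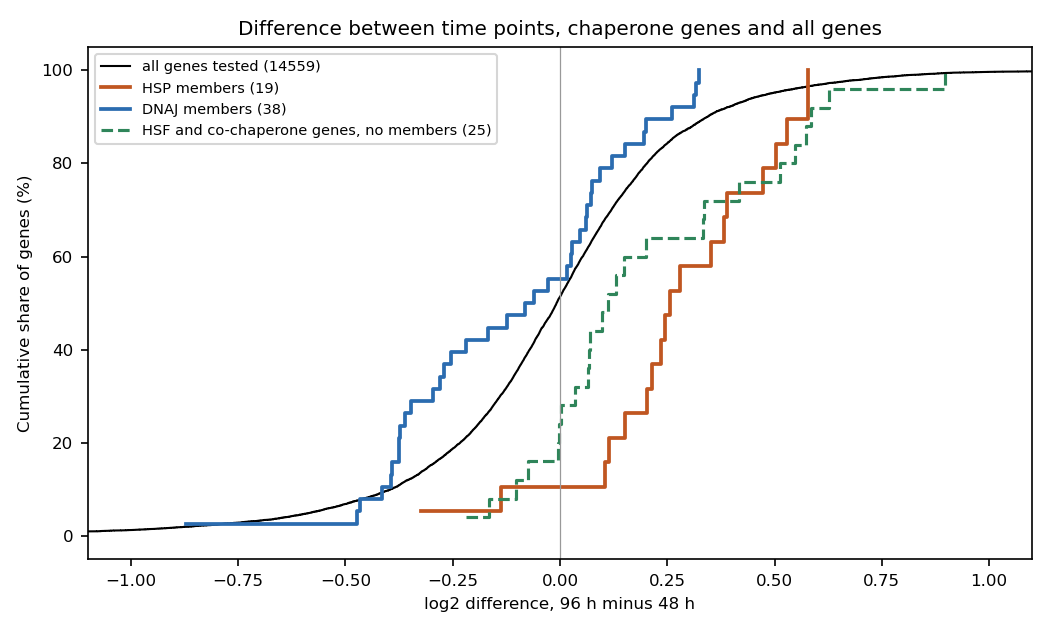
Cumulative share of genes (%) by log2 difference, 96 h minus 48 h, for all 14559 genes tested, the 19 HSP members, the 38 DNAJ members and 25 HSF and co-chaperone genes that are no members. The HSP curve lies to the right of the curve for all genes (median 0.26 against -0.0079), and the DNAJ curve lies to its left over much of the range (median -0.07).

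HSP70 and HSP110 genes held the largest differences upwards. At 48 h HSPA8 read 3.09 on the control array and 3.05 on the ALKBH3 array, and at 96 h it read 3.65 on both. Both 96 h arrays lay above both 48 h arrays, by 0.56 and 0.60 within the shRNAs. The mean log2 difference was 0.58 (SE 0.09, limma, adjusted p = 0.114, and 0.0264 with shRNA as a block).

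HSPA4L read -1.77 and -2.05 at 48 h and -1.31 and -1.35 at 96 h, control shRNA first. HSPH1, which acts as a nucleotide exchange factor for HSP70, read 3.1 and 2.82 at 48 h and 3.49 and 3.48 at 96 h. In both genes the 96 h arrays were the higher pair and the 48 h arrays were the more spread. The difference was 0.58 for HSPA4L (SE 0.13, adjusted p = 0.147) and 0.53 for HSPH1 (SE 0.13, adjusted p = 0.164), and 0.0352 and 0.0424 were the adjusted p with shRNA as a block.

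HSPA1L, an HSP70 gene next to HSPA1A, read -4.42 on both 48 h arrays and -3.84 and -4.05 at 96 h, a difference of 0.47 (adjusted p = 0.157, block 0.0443). HSPA1A read 2.94 and 2.96 at 48 h and 3.36 and 3.25 at 96 h, and its difference was 0.35 (SE 0.10, adjusted p = 0.182). HSPA1B differed by 0.28 (SE 0.09, adjusted p = 0.229), and because HSPA1A and HSPA1B are nearly identical in sequence their probes may not be separate measurements. HSPA14, HSPA9 (mortalin, of the mitochondrion), HSPA4 and HSPA2 were 0.24, 0.21, 0.11 and 0.10 higher. HSPA13 differed by -0.14 and HSPA6 by -0.32, the exceptions among HSP members. HSPA6 was overlapping between time points and its second probe gave 0.02.

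HSP90AA1, the inducible cytosolic HSP90, read 6.11 and 6.02 at 48 h and 6.58 and 6.56 at 96 h. The groups did not overlap and the difference was 0.50 (SE 0.09, limma, adjusted p = 0.125, block 0.0315). Its other 2 probes gave 0.13 and 0.17, so the direction is shared but the size depends on the probe. HSP90AB1, the constitutive form, was 0.20 higher (adjusted p = 0.363), and 0.39 higher with its second probe.

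HSPD1 read 5.13 and 5.16 at 48 h and 5.55 and 5.51 at 96 h, and HSPE1, its neighbour in the genome, 5.16 and 5.27 and then 5.60 and 5.61. Both genes of the mitochondrial chaperonin were higher on every 96 h array, by 0.38 and 0.39 (SE 0.09 each, limma, adjusted p = 0.154 and 0.164). With shRNA as a block the adjusted p were 0.0497 and 0.04999, at the edge of the threshold. Among small HSPs, HSPB1 was 0.26, HSPB6 0.24 and HSPB9 0.15 higher, and only for HSPB1 did the groups separate.

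**Figure D3:**
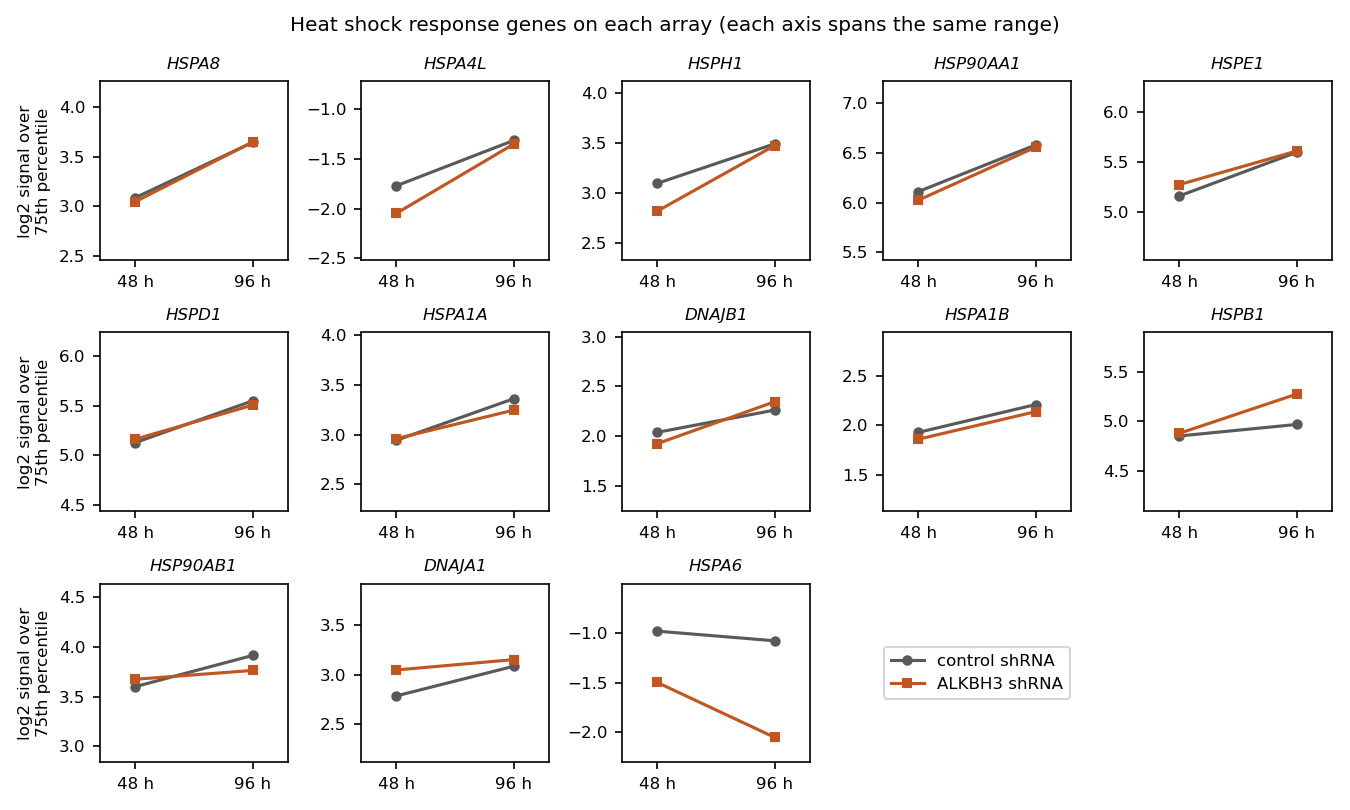
Log2 signal over the 75th percentile on each array for the 13 members on the heat shock response list, 48 h and 96 h joined within control shRNA (circles) and ALKBH3 shRNA (squares), with every axis spanning the same range. All genes except HSPA6 are higher at 96 h in both shRNAs, with means of both pairs from 0.20 (DNAJA1 and HSP90AB1) to 0.58 (HSPA8 and HSPA4L). Within an shRNA the rises run from 0.09 (HSP90AB1) to 0.70 (HSPA4L), both with ALKBH3 shRNA.

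Of the heat shock response list, 12 of 14 genes were higher at 96 h and in all 12 the groups did not overlap, with a median of 0.34. Over all genes 48.7% were higher and 26.9% separated upwards. By the tests of single genes 9 had an unadjusted limma p below 0.05, all higher (9.89% of all genes), and 0 were called. The remaining genes were HSPA6 and CRYAB, at -0.32 and -0.09. Members whose promoter held the longer heat shock element (7 tested) had a median difference of 0.20, from -0.32 to 0.58, and 5 were higher. The other 2 were HSPA6 and DNAJB6, whose probes differ in sign, and with the DNAJB6 probe for another transcript the median was 0.38 and 6 were higher. Those with the shorter motif only (12 tested) had a median of 0.27, from -0.87 to 0.58, and 10 were higher, and those with neither (34 tested) had a median of -0.0019 and 17 were higher. Most members with neither motif were DNAJ genes and most with a motif were HSP genes, so these groups largely repeat the families. Of the HSP genes with neither motif, HSPA13 was lower (-0.14) and the others were higher, up to 0.53 (HSPH1). A link between motif and difference was not tested. The motif is a description of these windows and was not read as binding.

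DNAJ members that were higher at 96 h included known partners of cytosolic HSP70. DNAJB1 read 2.04 and 1.92 at 48 h and 2.26 and 2.35 at 96 h, a difference of 0.32 (SE 0.10, limma, adjusted p = 0.208). DNAJA4 was 0.31 higher, DNAJA1 0.20 and DNAJA3, of the mitochondrion, 0.20, and none passed the test. DNAJC9, a histone chaperone, was 0.32 higher (SE 0.09, adjusted p = 0.185). DNAJA2 differed by -0.38 (adjusted p = 0.172), against the other 3 DNAJA genes. DNAJB6 differed by -0.28 with the probe used and by 0.47 with a probe for another of its transcripts, so no direction is given for that gene.

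The members lower at 96 h were led by DNAJC15, a protein of the mitochondrial inner membrane that limits respiratory complex I. DNAJC15 read -3.31 and -3.27 at 48 h and -4.03 and -4.30 at 96 h. Both 96 h arrays lay below both 48 h arrays, by -0.72 and -1.02 within the shRNAs, and the mean was -0.87 (SE 0.13, limma, adjusted p = 0.114, block 0.0244). It was the member closest to the 2-fold rule, and without the control array at 96 h its difference was -1.01. HSPA12A, not tested with all arrays, then entered the test only through the ALKBH3 shRNA array at 96 h. It was highest on that array and well above background on no other, so no result is read from it.

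DNAJC18, of the endoplasmic reticulum membrane, read -0.94 and -1.09 at 48 h and -1.52 and -1.44 at 96 h. It differed by -0.47 (SE 0.10, adjusted p = 0.147, block 0.0478). DNAJC22 differed by -0.47 (adjusted p = 0.291, block 0.0372) and DNAJC12 by -0.42 (adjusted p = 0.376, block 0.0459). In both of these genes the ALKBH3 shRNA array was the higher at each time, and for DNAJC12 the time groups overlapped. DNAJC4 differed by -0.39 (adjusted p = 0.213), and DNAJC21, a factor of ribosome assembly, by -0.37 (adjusted p = 0.224, block 0.0489). The second DNAJC21 probe, for another transcript, gave only -0.04.

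**Figure D4:**
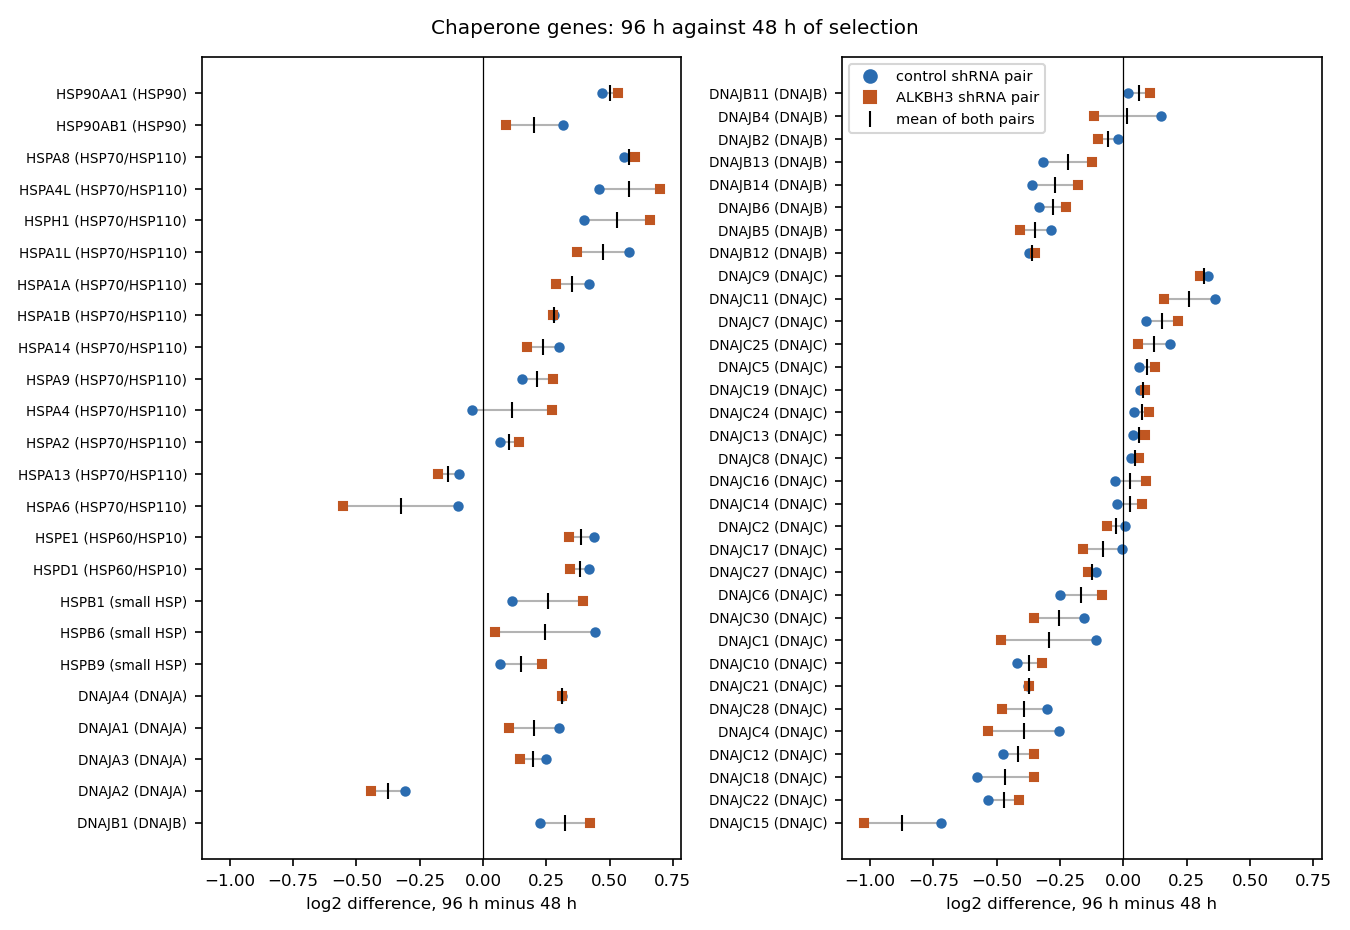
Log2 difference between 96 h and 48 h for the 57 members tested, by family, within control shRNA (circles) and ALKBH3 shRNA (squares), with the mean of both pairs as a bar. The means of the HSP families lie to the right of 0 except HSPA13 and HSPA6, HSPA4 lies at -0.04 in control shRNA, and DNAJC15 (-0.87) lies farthest to the left.

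Grouped by compartment, the members split. Of 9 mitochondrial members 6 were higher and 3 lower, with a median of 0.20: HSPE1, HSPD1, DNAJC11, HSPA9, DNAJA3 and DNAJC19 stood against DNAJC15, DNAJC28 and DNAJC30. In all 9 the groups did not overlap, which held for 68.4% of members and 53.3% of all genes. Over all genes 26.4% separated downwards and 26.9% upwards. The 8 DNAJ members of the endoplasmic reticulum had a median of -0.28, with DNAJC18, DNAJC10, DNAJB12, DNAJC1 and DNAJB14 at -0.47 to -0.27 and all 5 separated downwards. The remaining DNAJC16, DNAJB11 and DNAJC25 were at 0.03, 0.06 and 0.12, and DNAJB11 separated upwards. DNAJC10, a disulfide reductase of that compartment, differed by -0.37 (adjusted p = 0.172). The 4 secretory chaperones left out by the symbol rule differed by -0.65 (DNAJB9), -0.27 (HSPA5, or BiP), -0.20 (DNAJC3) and -0.11 (HSP90B1), each with groups that did not overlap. Only DNAJB9 passed an adjusted p of 0.05, and only with shRNA as a block (0.0243, against 0.114 without it). DNAJC2, DNAJC24 and DNAJC25 differed by -0.03, 0.07 and 0.12 between time points.

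Co-chaperones that are no members were higher at 96 h in 19 of 25 cases (48.7% of all genes were), with a median of 0.11. At an unadjusted limma p below 0.05 there were 9 higher and 0 lower (9.89% and 9.38% of all genes). With shRNA as a block 7 had an adjusted p below 0.05, all higher (6.15% of all genes). These were the HSP90 partners FKBP5 (0.90), PPID (0.63), CHORDC1 (0.59), STIP1 (0.57), FKBP4 (0.51) and PTGES3 (0.42) and the HSP70 partner BAG2 (0.55). HSF1 itself differed by -0.10 (adjusted p = 0.698), and HSF2 by -0.17. All 8 CCT subunits were higher, by 0.18 to 0.44, with a median of 0.25, and in all 8 the groups did not overlap (26.9% of all genes separated upwards).

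Members with more than 1 probe well above background on every array numbered 17. Their probes differed in sign for 5 genes between shRNAs and for 5 between time points, DNAJB2, DNAJB6, DNAJC27, DNAJC5 and HSPA6 in the latter. DNAJB7, DNAJB8, HSPA12B, HSPB2, HSPB3, HSPB7 and HSPB8 were well above background on 0 arrays, and DNAJC5B and HSPA12A on 1, so these 9 were not tested in either comparison with all arrays. DNAJC5G, above background on 2 arrays, was tested between shRNAs only.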

How the data were processed

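The authors hybridised 4 one-colour Agilent arrays and read them with Agilent Feature Extraction, version 10.7.3.1 per the file headers. The deposited intensity values are background-subtracted within each array, and the deposited 0 or 1 flags are other columns of the image software. The authors also deposited log2 values normalized between arrays with limma, whose order of steps is not given in the sources used here, and these were used as an alternative.

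From the scanner intensities, control spots and outlier spots (180 to 379 on an array) were left out, log2 signal was centred on the 75th percentile of each array, and spots of a probe were averaged. Probes were named through RefSeq accessions: 24910 of 34127 matched a gene, and 9217 were unnamed. The symbol rule was applied to these names. Testing required a probe flagged as well above background on every array of 1 group or more, and the brightest such probe stood for the gene. R 4.3.3 and limma 3.58.1 (lmFit, eBayes) gave differences, SE and Benjamini-Hochberg adjusted p over all genes. The cutoffs were 2-fold and p 0.05, which the study gives in the legend of its volcano plot. Scripts were tested on simulated data.

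The named genes were, for each comparison, the members called, the 5 largest differences in each direction with the same sign in both pairs of arrays, members with an adjusted p below 0.05 with a block, the heat shock response list, DNAJC2, DNAJC24 and DNAJC25, and ALKBH3 as the check of the labels. The members and lists were chosen with earlier results of these data known. Arrays of the same time point deviated together (correlation 0.703 over genes between shRNAs, and 0.640 for arrays of the same shRNA between time points), the pairing being the time point and shRNA in the labels. Alternatives were quantile normalization, median centring, the percentile over probes well above background, normexp with an offset of 50, the authors' values, no filter or a filter on all 4 arrays, other rules for probes, a block, a plain t-test, other fold cutoffs and leaving out each array. The number of arrays limits the precision.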

Additional observations from a re-analysis of the deposited data

Results flagged for a closer look

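Some members moved in opposite directions at the 2 time points under the same shRNA contrast. In each case the difference between time points was not tested, since each value rests on 1 array against 1 array. DNAJB1 differed by -0.114 at 48 h and 0.0841 at 96 h, HSP90AB1 by 0.0744 and -0.151, and HSPA1A by 0.0168 and -0.115. HSPA8 differed by -0.039 and 0.0027, HSPD1 by 0.0344 and -0.0428, and DNAJC2 by 0.0189 and -0.0503. Between time points DNAJC2 differed by 0.0064 with control shRNA and by -0.0629 with ALKBH3 shRNA, which was not tested either. Over all genes tested, 70.2% had the same sign in both pairs between shRNAs and 76.5% between time points, against 72.4% and 91.2% of members.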

How the results depend on the processing

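Between shRNAs, members called higher were 0 after quantile normalization, after normexp, in the authors' values and with a filter on all 4 arrays, and 2 with no fold cutoff. Members called lower were 1, HSPA6, with a 1.5-fold cutoff and with no fold cutoff, and otherwise 0 with all arrays. Without the ALKBH3 shRNA array at 48 h HSPA6 differed by -1.02. HSPA12A then entered the test only through the 1 array where it was well above background and highest, so no result is read from it.
Centring on the median moved the median of all genes to -0.058 and the members' median to -0.0712, the HSP median to -0.0934, the DNAJ median to -0.0524 and the heat shock response median to -0.0833. The DNAJ median was 0.0218 with the percentile over probes well above background, -0.021 after normexp and -0.0209 in the authors' values. The heat shock response median was -0.0092 with that percentile, -0.0214 after normexp, -0.0102 after quantile normalization, -0.0165 with the mean over probes and -0.0436 with each probe tested.
Without single arrays time is unbalanced between the shRNAs by construction. The medians then ranged from -0.0196 to 0.0587 (members), -0.21 to 0.182 (HSP), -0.0539 to 0.0404 (DNAJ) and -0.212 to 0.194 (heat shock response), HSPA8 from -0.318 to 0.282, HSPA1A from -0.258 to 0.16, HSPA1B from -0.21 to 0.0702, HSPA4L from -0.506 to 0.192, HSPH1 from -0.478 to 0.182, HSP90AA1 from -0.322 to 0.212 and HSP90AB1 from -0.195 to 0.119. Without a turn of sign, DNAJC12 ranged from 0.178 to 0.654, DNAJC22 from 0.0939 to 0.629, HSPB6 from -0.604 to -0.162, HSPA6 from -1.02 to -0.468 and DNAJA1 from 0.0148 to 0.313. HSPD1 ranged from -0.214 to 0.206, HSPE1 from -0.157 to 0.283, HSPB1 from -0.0317 to 0.364, DNAJB1 from -0.226 to 0.196, DNAJC2 from -0.0471 to 0.0157 and DNAJC28 from -0.472 to 0.0097. The sign also turned for HSPD1, DNAJB1 and DNAJC2 after quantile normalization (0.0207, 0.00201 and 0.000188), for HSPD1, DNAJB1, DNAJC2 and HSPA8 with the other percentile (0.0148, 0.00415, 0.00331 and 0.000864), and for HSPD1 and DNAJB1 after normexp (0.0533 and 0.0653) and in the authors' values (0.0476 and 0.0698).
Between time points the HSP median was 0.319 after normexp and 0.344 in the authors' values, and 0.269 to 0.331 without single arrays. The heat shock response median was 0.361 centred on the median, 0.354 with the other percentile, 0.400 after normexp, 0.410 in the authors' values, 0.31 with the mean over probes, 0.301 with each probe tested and 0.338 to 0.363 without single arrays. The members' median was 0.108 in the authors' values. Calls were 11 higher and 8 lower with no fold cutoff (19.3% and 14% of members, against 9.89% and 9.38% of all genes). With a 1.5-fold cutoff they were 0 higher and 1 lower, DNAJC15 (0% and 1.75% of members, against 2.92% and 3.1% of all genes). Without the control array at 96 h DNAJC15 differed by -1.01, and HSPA12A entered the test only through the 1 array where it was well above background. DNAJC24 ranged from -0.0519 to 0.196 and HSPA6 from -0.811 to 0.161 without single arrays. The cause was not tested for any of these. With the other factor as a replicate block, adjusted calls of members between time points went from 0 to 12 (21.1%, against 13.4% of all genes). Between shRNAs they went from 0 to 1 (1.72%, against 4.46% of all genes). The pairing was by shRNA or by time point, and the 2-fold calls of members kept their counts.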
